A study of Macaca mulatta with 24 samples.

Results

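Oligodendrocyte and myelin genes were followed across the layers of the lateral geniculate nucleus (LGN) of monocularly deprived rhesus macaques. The members were 9 genes, MAL, CNDP1, CD9, MBP, MOG, MAG, CNP, MOBP and OLIG2, chosen with earlier results of these data known. A probe set entered when the platform annotation gave it 1 of these symbols and no other. A total of 6 of the 9 genes had such a probe set, 11 probe sets in all, among 24956 probe sets with a single symbol that stand for 14132 symbols. MOG, MAG and MOBP were not analysed here.

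The tissue came from 2 Macaca mulatta infants whose left eye was deprived of vision from birth, one for 2 months behind an opaque dark contact lens and the other for 4 months by tarsorrhaphy, in which the lids are closed by surgery. From the 4 nuclei, each of the 6 principal layers was laser-captured, pooled over sections into a single sample and hybridized to 1 Rhesus Macaque Genome Array, which gave 24 arrays. Magnocellular layers are 1 and 2, parvocellular layers are 3 to 6, and the koniocellular layers between them were not captured. Deprived layers were 2, 3 and 5 in the LGN on the side of the deprived eye (ipsilateral) and 1, 4 and 6 in the other LGN (contralateral), so the groups held 8 deprived parvocellular, 8 nondeprived parvocellular, 4 deprived magnocellular and 4 nondeprived magnocellular layers. The nondeprived layers lay in the same nuclei as the deprived ones, and arrays of normally reared animals were not analysed here. A rise in deprived layers therefore cannot be told from a fall in nondeprived ones. Upregulated and rose here mean a higher signal in deprived than in nondeprived layers, and downregulated a lower signal. Duration, method of deprivation and animal cannot be told apart. Layers of 1 animal are not independent animals, so p-values measure the spread between layers.

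Oligodendrocytes wrap axons of the central nervous system in myelin, a stack of compacted membrane that speeds conduction. Compact myelin is held together by basic protein and tetraspan proteins, while enzymes of the uncompacted cytoplasm and lineage transcription factors mark the cell itself. Myelination of the visual pathway goes on after birth, and the LGN layers are crossed by myelinated axons of the optic tract and of relay cells. In captured tissue, fewer oligodendrocytes and less RNA per oligodendrocyte cannot be told apart.

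The deposited signals were scaled to a common trimmed mean, and 40.6% to 57.1% of probe sets reached a signal of 100 on an array. One array stood apart, that of deprived layer 2 of the 2-month ipsilateral LGN: it correlated with the rest by a mean r of 0.811, while the other 23 arrays had means of 0.885 to 0.919. Its ratio of the 3′ to the 5′ GAPDH control probe sets, a sign of RNA length, was 50.8 against 1.97 to 14.3 elsewhere. All 11 member probe sets passed the filter of a signal of 100 in at least 1 array. Of these, 9 reached it on 24 of 24 arrays, the low-signal CD9 probe set on 21 and the OLIG2 probe set MmugDNA.17552.1.S1_at on 2. Values of both are close to the noise and are given for completeness. Markers of other glia and of neurons were also well measured in the captures, whereas the summed signal of markers of Schwann cells, which make peripheral myelin, stayed between 73.4 and 468 and that of blood markers between 133 and 576.

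**Figure D1:**
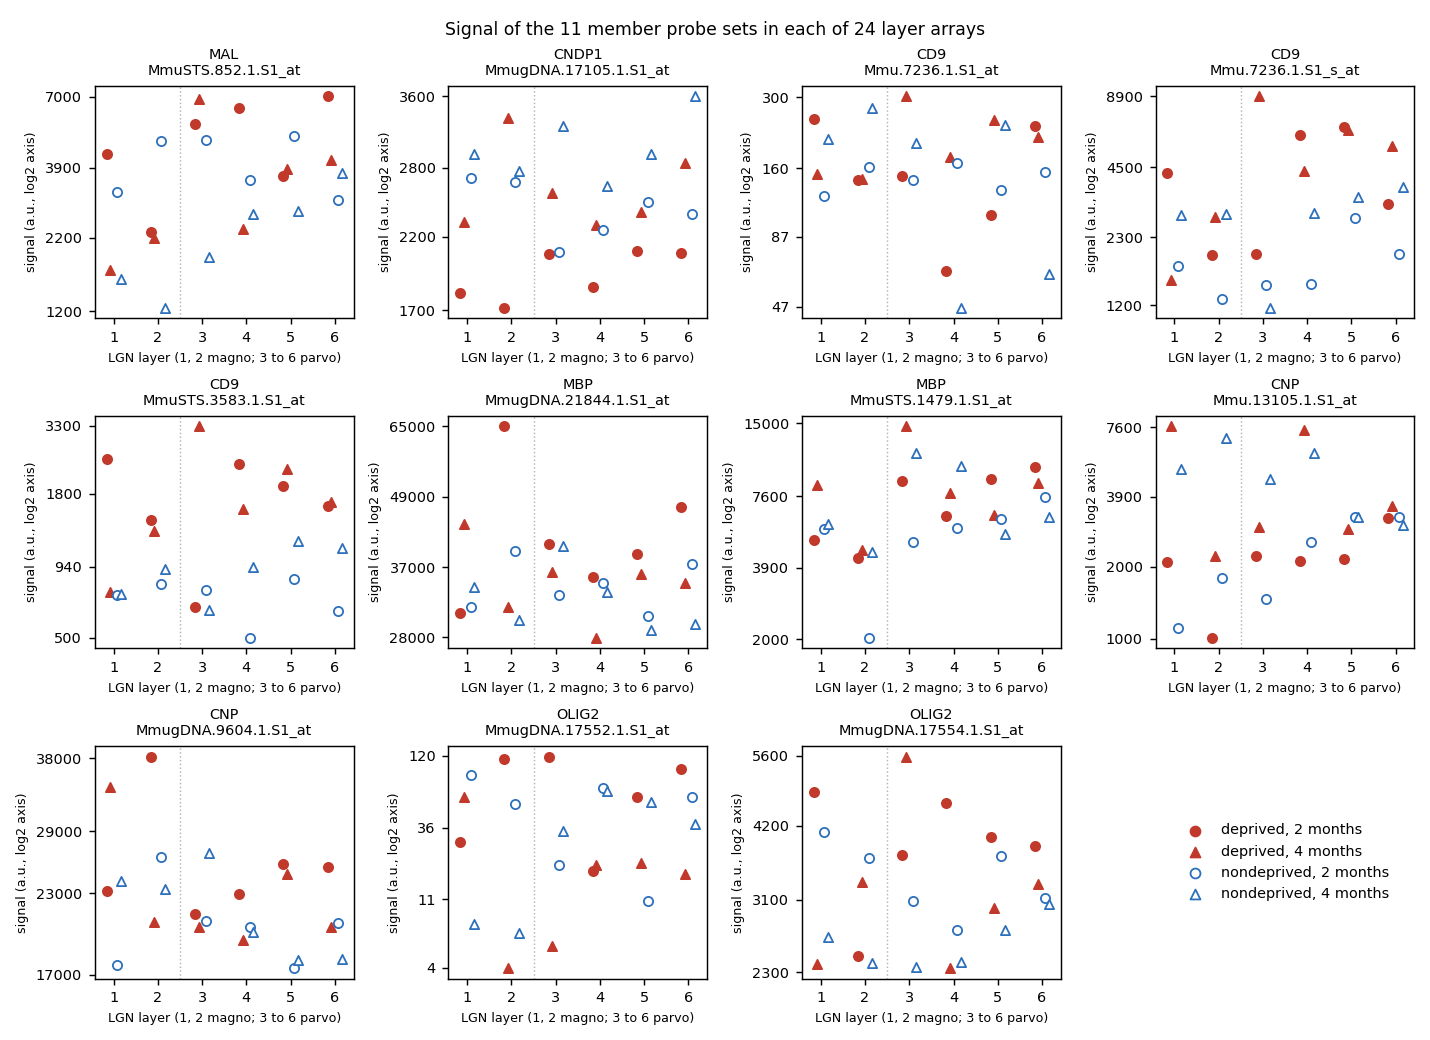
Signal (arbitrary units, log2 axis, own range in each panel) of the 11 member probe sets by LGN layer, 1 point for each of 24 arrays, with deprived layers filled, nondeprived layers open, circles for the animal deprived for 2 months and triangles for 4 months. The s_at and MmuSTS probe sets of CD9 have most of their high values in deprived layers, MAL and the MBP probe set MmuSTS.1479.1.S1_at are mostly lower in layers 1 and 2, and the CNP probe set (that with the prefix Mmu) is higher at 4 months in layers 1 to 4.

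CD9 was the member upregulated in deprived parvocellular layers. CD9 encodes a tetraspanin of the plasma membrane that is found in myelin and in many other cells. Of its 3 probe sets, the one whose name ends in s_at leads by mean signal, and there the lowest, median and highest signals were 1959, 5808 and 8889 in the 8 deprived parvocellular layers and 1171, 2371 and 3728 in the 8 nondeprived layers. The groups overlapped, with 6 of 8 deprived layers above the highest nondeprived layer. The log2 difference, deprived minus nondeprived, was 1.18 (SE 0.24, adjusted p = 0.0196) in limma, which is a 2.26-fold higher signal.

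The second CD9 probe set, MmuSTS.3583.1.S1_at, gave 659.5, 1804 and 3273 in the deprived and 501, 804 and 1181 in the nondeprived parvocellular layers, where 7 of 8 deprived layers lay above every nondeprived one. Its log2 difference was 1.14 (SE 0.19, adjusted p = 0.00744). Deprived layers were compared with their partner in the same LGN, layer 3 with 4 and layer 5 with 6. The deprived layer was the higher in 8 of 8 pairs on both probe sets, by 1.14 to 4.19 times on the first and 1.32 to 3.49 times on the second. In the pair of layers 5 and 6 of the 2-month ipsilateral LGN, for instance, the first probe set read 6650.2 in deprived layer 5 and 1965 in nondeprived layer 6. In layers 3 and 4 of the 4-month ipsilateral LGN it read 8889 in deprived layer 3 and 2911 in layer 4. The deprived layer that stayed low on both probe sets was layer 3 of the 2-month ipsilateral LGN, at 1959 and 659.5. The third CD9 probe set, with signals between 46.6 and 302, gave 0.41 (SE 0.34, adjusted p = 0.731), higher in the deprived layer in 3 of 8 pairs.

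The size of the CD9 difference was similar in both animals. Within the animal deprived for 2 months the log2 differences were 1.11 and 1.14 on the first and second probe set, and within the other animal 1.25 and 1.15, although with 8 arrays an animal the adjusted p-values were 0.33 and 0.228 at 2 months and 0.286 and 0.282 at 4 months. The call of the first probe set did not hold without nondeprived layer 3 of the 2-month contralateral LGN (log2 difference 1.10, adjusted p = 0.0531) or without deprived layer 4 of the same LGN (1.10, adjusted p = 0.0602), and it was lost when the GAPDH ratio entered the model (1.03, adjusted p = 0.0585). The second probe set was called in all 3 of these fits. Neither was called when eBayes was run without a trend, at adjusted p-values of 0.128 and 0.0823.

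These 2 CD9 probe sets were the members called in parvocellular layers, 2 of 11 higher and 0 lower. Over all 37623 probe sets tested, 0.585% were called higher and 0.385% lower, 0.97% in all, at an adjusted p under 0.05. At an unadjusted p under 0.05 there were 5 of 11 members against 11.4% of all probe sets. Of the 11 members 8 had a value above 0 against 48.7% of all probe sets, and the median log2 difference was 0.33 over the members and -0.01 over all probe sets. By the leading probe set of each gene, 1 of 6 was called higher, 5 of 6 lay above 0 and the median was 0.26. The members were chosen with earlier results of these data known, so their counts are a description.

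No other member was called in these layers. MAL, a lipid raft protein of compact myelin, had signals of 2351, 4879 and 7020.5 (lowest, median, highest) in deprived and 1879.8, 3259 and 5063 in nondeprived parvocellular layers. It was higher in the deprived layer of 8 of 8 pairs, by 1.03 to 2.56 times, with the largest ratio in layers 3 and 4 of the 4-month ipsilateral LGN (6838 against 2667). The log2 difference of 0.52 (SE 0.14, adjusted p = 0.0980) did not pass the threshold. It did pass when the GAPDH ratio entered the model (0.66, adjusted p = 0.0281) and without deprived layer 4 of the 4-month contralateral LGN (0.60, adjusted p = 0.0432).

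MBP, the basic protein that holds the cytoplasmic faces of compact myelin together, was measured on 2 probe sets. The one named MmuSTS.1479.1.S1_at gave 6298, 8698 and 14576 in deprived and 4950.4, 6208 and 11403 in nondeprived parvocellular layers, with 8 of 8 deprived layers above the nondeprived median and a log2 difference of 0.33 (SE 0.18, adjusted p = 0.513). The other, MmugDNA.21844.1.S1_at, gave 27947, 36136 and 47004 and 28812, 33292 and 40299, with a log2 difference of 0.14 (SE 0.10, adjusted p = 0.649). Each was higher in the deprived layer in 7 of 8 pairs, and the exception was the same pair, layers 3 and 4 of the 4-month contralateral LGN. There MmugDNA.21844.1.S1_at read 27947 in deprived layer 4 and 40299 in nondeprived layer 3, and MmuSTS.1479.1.S1_at read 7816 and 11403.

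CNP, the cyclic nucleotide phosphodiesterase of uncompacted myelin cytoplasm, gave a mean of 22486 ± 2519 (SD, n = 8) over deprived parvocellular layers and 20205 ± 2938 (SD, n = 8) over nondeprived ones on MmugDNA.9604.1.S1_at. The log2 difference was 0.16 (SE 0.10, adjusted p = 0.614), with the deprived layer higher in 7 of 8 pairs and the same pair as the exception. On the second CNP probe set, which has the prefix Mmu in its name, it was -0.06 (SE 0.20, adjusted p = 0.948), with 3 of 8 pairs higher. OLIG2, a transcription factor of the whole oligodendrocyte lineage, gave 3805 ± 995 (SD, n = 8) and 2898 ± 443 (SD, n = 8) on MmugDNA.17554.1.S1_at. Of the 8 deprived layers 5 lay above the highest nondeprived layer, 6 of 8 pairs were higher in the deprived layer, and the log2 difference was 0.36 (SE 0.13, adjusted p = 0.214).

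CNDP1 was the member with a lower signal in the deprived layer of every pair. It encodes carnosine dipeptidase 1, a secreted enzyme that splits carnosine. Its signals were 1846, 2193 and 2845 (lowest, median, highest) in deprived and 2087, 2557 and 3599 in nondeprived parvocellular layers, and in the 8 of 8 pairs the deprived layer lay at 0.668 to 0.976 of its partner. The log2 difference of -0.24 (SE 0.09, adjusted p = 0.298) did not pass the threshold.

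**Figure D2:**
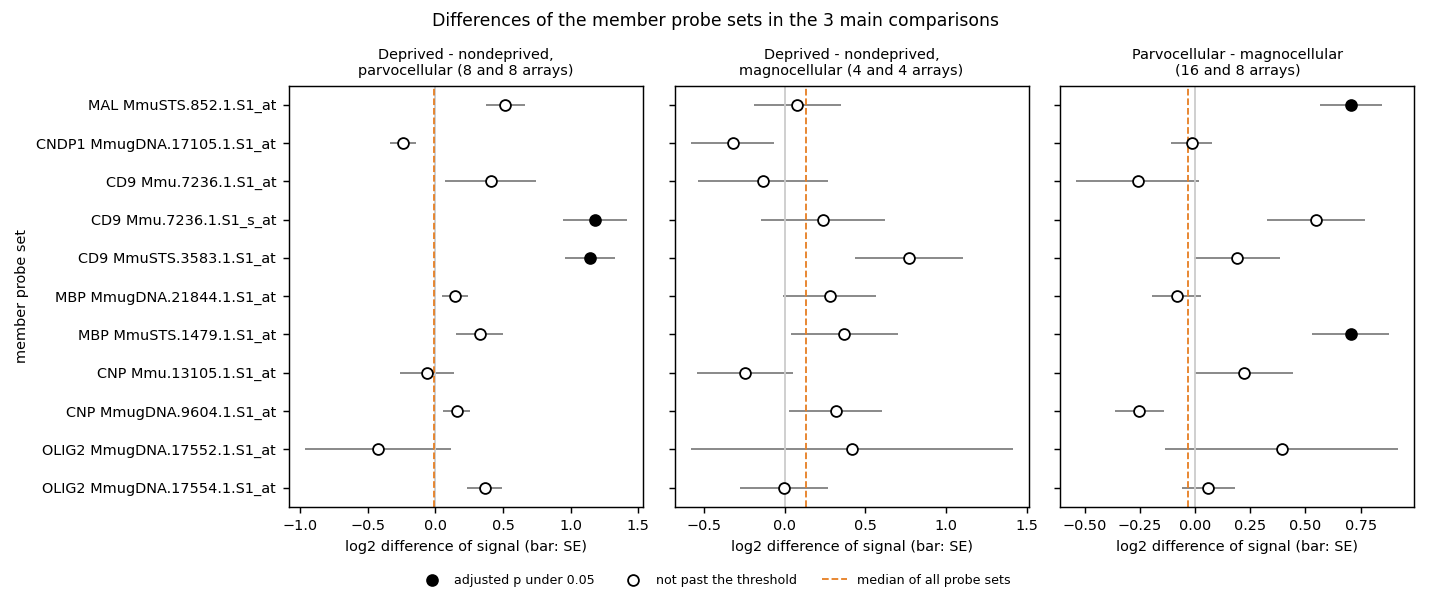
Log2 differences of signal (points, with bars of 1 SE) of the 11 member probe sets between deprived and nondeprived parvocellular layers, between deprived and nondeprived magnocellular layers, and between parvocellular and magnocellular layers, with filled points at an adjusted p under 0.05 and the median of all 37623 probe sets dashed. CD9 is filled on 2 probe sets in the first panel, no member in the second, and MAL and 1 MBP probe set in the third.

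In magnocellular layers no member was called between deprived and nondeprived layers. Limma called 0 of 11 members and 0% of all probe sets in either direction. At an unadjusted p under 0.05 there were 1 of 11 members and 2138 probe sets, or 5.68%. That member was CD9 on MmuSTS.3583.1.S1_at. The 4 deprived magnocellular layers gave 2457, 1425, 751 and 1288 and the 4 nondeprived ones 807, 730.3, 920.1 and 742, in the order contralateral 2 months, ipsilateral 2 months, contralateral 4 months, ipsilateral 4 months. The deprived layer was the higher in 3 of 4 LGNs, and the log2 difference was 0.77 (SE 0.33, adjusted p = 0.836). On the leading CD9 probe set, the 4 deprived magnocellular layers gave 4242, 1946, 1519 and 2794 and the 4 nondeprived ones 1267, 1748, 2885 and 2836, in the same order. One deprived value, layer 1 of the 2-month contralateral LGN, lay above the nondeprived ones, and the log2 difference was 0.24 (SE 0.38, adjusted p = 0.927).

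The remaining members lay between -0.32 for CNDP1 and 0.42 for the OLIG2 probe set near the noise, with MAL at 0.08 (SE 0.27, adjusted p = 0.968) and the MBP probe sets at 0.28 (SE 0.29, adjusted p = 0.879) and 0.37 (SE 0.33, adjusted p = 0.867). The median of all probe sets was itself 0.13 above 0 in this comparison, became -0.02 after quantile normalization and -0.11 after scaling to a common median, and 60.1% of all probe sets had a value above 0. The array that stood apart is 1 of the 4 deprived magnocellular layers. It gave the highest signal of MmugDNA.21844.1.S1_at among 24 arrays, 64895, and the highest of the CNP probe set MmugDNA.9604.1.S1_at, 38233.

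The deprivation difference itself was compared between the layer classes. The parvocellular minus magnocellular difference of the effect was called for 0 of 11 members in limma and 0% of all probe sets, with 1 of 11 members and 6.75% of all probe sets at an unadjusted p under 0.05. For CD9 it was 0.94 (SE 0.45, adjusted p = 0.738) on the first probe set and 0.38 (SE 0.39, adjusted p = 0.870) on the second, and for MAL 0.44 (SE 0.28, adjusted p = 0.790). A difference between the classes was thus not shown for any member. Between durations in parvocellular layers, 0 of 11 members and 0% of all probe sets were called, with 2 of 11 members and 3.89% of all probe sets at an unadjusted p under 0.05. Those were the low-signal probe sets of OLIG2 and CD9. For the second CD9 probe set, the effect at 4 months minus that at 2 months was 0.01 (SE 0.38, adjusted p = 0.997), and for MAL 0.14 (SE 0.30, adjusted p = 0.981).

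MAL, and MBP on 1 of its 2 probe sets, were higher in parvocellular than in magnocellular layers. MAL gave 4208 ± 1606 (SD, n = 16) in parvocellular and 2675 ± 1336 (SD, n = 8) in magnocellular layers, and 15 of 16 parvocellular layers lay above the magnocellular median. The log2 difference was 0.71 (SE 0.14, adjusted p = 0.00379). MBP on MmuSTS.1479.1.S1_at gave 8045 ± 2564 (SD, n = 16) and 5043 ± 1809 (SD, n = 8), with 16 of 16 parvocellular layers above the magnocellular median and 7 above every magnocellular layer. Its log2 difference was 0.70 (SE 0.17, adjusted p = 0.0210). These 2 of 11 members were the ones called higher, against 2.25% of all probe sets. None of the 11 was called lower, against 1.35% of all probe sets (3.6% in either direction). A value above 0 was found for 7 of 11 members and 46.1% of all probe sets, and the median was 0.19 over the members and -0.03 over all probe sets. By the leading probe set of each gene, 3 of 6 lay above 0 with a median of 0.02, and 1 of 6, MAL, was called. Of the 11 members 4 had an unadjusted p under 0.05, against 16.4% of all probe sets.

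RNA quality was uneven in this comparison, with the highest median GAPDH ratio in deprived and the lowest in nondeprived magnocellular layers. The median ratio of the 3′ to the 5′ GAPDH control signals was 8.11 in deprived and 4.36 in nondeprived magnocellular layers, against 5.08 and 4.74 in deprived and nondeprived parvocellular layers. With that ratio as a covariate the log2 difference of MAL was 0.59 (adjusted p = 0.0515) and that of MBP 0.36 (adjusted p = 0.35). With the covariate and without the array that stood apart, a fit chosen after the data were seen, they were 0.58 (adjusted p = 0.06) and 0.29 (adjusted p = 0.365). Without the covariate, MBP lost its call without the array that stood apart (0.64, adjusted p = 0.0505) and without nondeprived layer 2 of the 2-month contralateral LGN (0.56, adjusted p = 0.0751), while MAL kept it in both fits. Within animals, the MAL difference was 0.41 (adjusted p = 0.232) at 2 months and 1.00 (adjusted p = 0.022) at 4 months, and that of MBP was 0.84 (adjusted p = 0.106) and 0.56 (adjusted p = 0.385).

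The other MBP probe set did not share this pattern. On MmugDNA.21844.1.S1_at the signals were 35323 ± 4989 (SD, n = 16) in parvocellular and 38320.0 ± 11794 (SD, n = 8) in magnocellular layers, with a log2 difference of -0.08 (SE 0.11, adjusted p = 0.773). After quantile normalization this became 0.26 (adjusted p = 0.0069), so its direction rests on the scaling. CNP was -0.25 (SE 0.11, adjusted p = 0.252) on MmugDNA.9604.1.S1_at and 0.22 (SE 0.22, adjusted p = 0.684) on its second probe set. CD9 was 0.55 (SE 0.22, adjusted p = 0.204) on the first probe set and 0.19 (SE 0.19, adjusted p = 0.690) on the second, OLIG2 0.06 (SE 0.12, adjusted p = 0.855) and CNDP1 -0.01 (SE 0.09, adjusted p = 0.958).

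Among single layers, layer 2 was the lowest for MBP on MmuSTS.1479.1.S1_at. Its 4 arrays gave 2028, 4255, 4496 and 4583, with a mean of 3840.5 ± 1216 (SD, n = 4). In falling order the means of the other layers were 9931 ± 4076 (SD, n = 4) in layer 3, 8097 ± 1573 (SD, n = 4) in layer 6, 7452 ± 1955 (SD, n = 4) in layer 4, 6699 ± 1532 (SD, n = 4) in layer 5 and 6245 ± 1518 (SD, n = 4) in layer 1. Layer 2 was below layer 3 by -1.34 (adjusted p = 0.0125) and below layer 6 by -1.13 (adjusted p = 0.0237) on the log2 scale. Of the neighbours in the order, the 4 arrays of layer 1 all lay above the 4 of layer 2, but the log2 difference of 0.75 (SE 0.24, adjusted p = 0.322) did not pass the threshold, and the other neighbours differed by 0.10 to 0.21 (SE 0.24). Among 15 layer pairs and 11 probe sets these were the 2 calls of a member, beside 1553 calls over all probe sets, or 0.275%. That share is pooled over the 15 pairs, which were not alike, with 0% called between layers 1 and 2. The shares for layer 2 against layer 3 and against layer 6 alone are not given here and can be higher.

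Layer 2 also had the highest GAPDH ratios, with a median of 11.6 and a range of 3.74 to 50.8, against 1.97 to 5.35 in layer 3 and 2.65 to 5.65 in layer 6. With the ratio as a covariate the MBP differences were -0.88 from layer 3 (adjusted p = 0.258) and -0.71 from layer 6 (adjusted p = 0.41), and neither was called. With the covariate and without the array that stood apart, a fit chosen after the data were seen, they were -0.42 (adjusted p = 0.776) and -0.33 (adjusted p = 0.855). Without that array alone both calls held, at -1.35 (adjusted p = 0.0257) and -1.14 (adjusted p = 0.0423). Both were lost without nondeprived layer 2 of the 2-month contralateral LGN (adjusted p = 0.0632 and 0.108), in eBayes with no trend (0.0583 and 0.0854) and in the arrays of the 4-month animal (0.0596 and 0.314). The call against layer 3 was lost with a common median (adjusted p = 0.0652), without deprived layer 3 of the 4-month ipsilateral LGN (adjusted p = 0.0826) and without nondeprived layer 3 of the 4-month contralateral LGN (adjusted p = 0.0554). That against layer 6 was lost without nondeprived layer 6 of the 2-month ipsilateral LGN (adjusted p = 0.0801) and without deprived layer 6 of the 2-month contralateral LGN (adjusted p = 0.101).

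MAL had the order of layers 3, 6, 5, 4, 1 and 2, with means from 4800.3 ± 2106 (SD, n = 4) to 2647 ± 1542 (SD, n = 4). None of its neighbours was called, and the largest step in limma was layer 4 above layer 1 by 0.48 (SE 0.24, adjusted p = 0.626). CD9 on its first probe set was highest in layer 5 at 4806 ± 2016 (SD, n = 4) and lowest in layer 2 at 2223 ± 765 (SD, n = 4), with layer 3 the most spread at 3369 ± 3694 (SD, n = 4), where its deprived arrays read 1959 and 8889 and its nondeprived arrays 1458 and 1171. OLIG2 ran from 3686 ± 1382 (SD, n = 4) in layer 3 to 2964 ± 639 (SD, n = 4) in layer 2 and CNDP1 from 2727 ± 661 (SD, n = 4) in layer 6 to 2254 ± 319 (SD, n = 4) in layer 4, again with no neighbours called. The outer parvocellular layers 5 and 6 were compared with the inner layers 3 and 4, and layer 1 with layer 2. Limma called 0 of 11 members and 0% of all probe sets in both comparisons. At an unadjusted p under 0.05 there were 0 members and 6.06% of all probe sets in the first and 1 member and 9.7% in the second. That member was MBP on MmuSTS.1479.1.S1_at, higher in layer 1 by 0.75 (SE 0.24, adjusted p = 0.322).

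The animals differed in some members, which is given as a description because each stands for 1 duration and 1 method. MAL was 4486 ± 1417 (SD, n = 12) at 2 months and 2908 ± 1557 (SD, n = 12) at 4 months, and most of the gap lay in the contralateral LGN, at 5429.7 ± 1030.3 (SD, n = 6) and 2343 ± 1038 (SD, n = 6). In the ipsilateral LGN the means were 3542 ± 1105 (SD, n = 6) and 3473 ± 1869 (SD, n = 6). CNP on its second probe set was 2173 ± 765 (SD, n = 12) at 2 months and 4608 ± 1937 (SD, n = 12) at 4 months, while on MmugDNA.9604.1.S1_at it was 23306 ± 5525 (SD, n = 12) and 22453 ± 4585 (SD, n = 12). The former difference was concentrated in layers 1 to 4, as in layer 1 of the contralateral LGN (2087 at 2 months, 7649 at 4 months), while layers 5 and 6 read between 2145 and 3584 in both animals. The log2 difference of means between the animals had a median of -0.18 over all probe sets, with 3.43% above 1 and 5.78% below -1.

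The members varied together only in part. After each LGN's mean was subtracted, Pearson's r of log2 signals over 24 arrays ran from -0.56 to 0.87 among the 49 pairs of probe sets of different genes, with a median of -0.04. These arrays share 2 animals, 4 LGNs and the same scaling, so r is a description. CD9's first and second probe sets went together (r = 0.88, Spearman's rho = 0.83), and both went with OLIG2 (r = 0.63 and 0.61) and MAL (r = 0.53 and 0.46). MAL also went with OLIG2 (r = 0.64) and with MBP on MmuSTS.1479.1.S1_at (r = 0.52). A second group was formed by MBP on MmugDNA.21844.1.S1_at and CNP on MmugDNA.9604.1.S1_at (r = 0.87, and 0.79 without the array that stood apart). Between the 2 probe sets of MBP r was 0.14 (0.42 without that array), and between those of CNP it was -0.03 (0.27). CNDP1 went against CD9's second probe set (r = -0.56, and -0.53 without the array that stood apart). It also went against CNP on MmugDNA.9604.1.S1_at (r = -0.47, and -0.32 without that array).

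**Figure D3:**
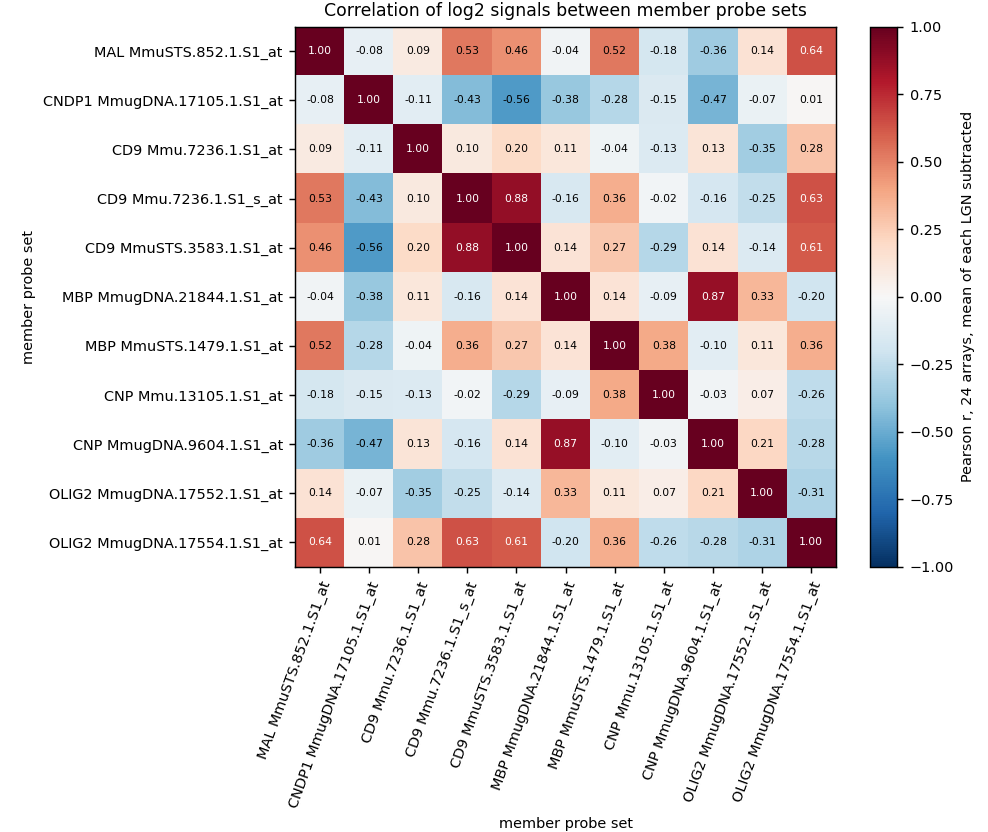
Pearson's r of log2 signals between each pair of the 11 member probe sets (both axes) over 24 arrays after the mean of each LGN was subtracted, from -1 in blue to 1 in red. The red cells join CD9 on 2 probe sets with OLIG2 and MAL, and, apart from them, 1 MBP with 1 CNP probe set at 0.87.

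The mean log2 signal of the leading probe sets of the 6 genes, those with the highest mean signal, was set beside 14548 other probe sets with a single symbol, with each LGN's mean subtracted. The most alike were PLPPR1 (r = 0.90), LOC717047 (0.85), ABLIM3 (0.84), LOC699612 (0.83), METTL14 (0.82), EVI2A (0.81), SRPX (0.81), MRPL44 (0.81), SERPINA3 (0.80) and LOC715623 (0.80), over 24 arrays, where the 99th percentile of all was 0.68. EVI2A also belongs to the wider oligodendrocyte genes below. The median r of the listed genes was 0.64 for other oligodendrocyte enzymes and receptors, 0.52 for lineage transcription and RNA-binding factors, 0.43 for other myelin membrane proteins, 0.41 for myelin lipid synthesis (from -0.51 to 0.70), 0.40 for pericyte and meningeal markers, 0.30 for microglia, 0.25 for Schwann cell markers, 0.24 for oligodendrocyte precursor genes, 0.21 for endothelial markers, 0.19 for blood markers, 0.06 for GABAergic neuron markers, 0.02 for astrocytes, -0.14 for axon partners of the paranode and node and -0.22 for neuron markers.

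The other genes of the lineage were taken from 4 lists of mature oligodendrocyte genes, of which 34 of 55 were measured. In deprived parvocellular layers 7 of the 34 were upregulated and 1 was downregulated, where 0.585% and 0.385% of all probe sets were called. A value above 0 was found for 31 of 34, and the median was 0.32 against -0.01 over all probe sets. The lists were made with earlier results of these data known, and their counts are a description.

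Those upregulated were of several kinds. EVI2A, a small membrane protein, rose from 1986 ± 486 to 3176 ± 798 (SD, n = 8 each), a log2 difference of 0.68 (SE 0.15, adjusted p = 0.0324). PLLP, or plasmolipin, a tetraspan proteolipid of myelin, rose by 0.56 (SE 0.13, adjusted p = 0.0492). QKI, an RNA-binding protein needed for the maturation of myelin messengers, rose from 3982 ± 674 to 5875 ± 1075 (SD, n = 8 each) and by 0.56 (SE 0.13, adjusted p = 0.0374). PADI2, which citrullinates arginines of myelin basic protein, rose by 0.59 (SE 0.12, adjusted p = 0.0233). S1PR5, a sphingosine-1-phosphate receptor of oligodendrocytes, rose by 0.67 (SE 0.16, adjusted p = 0.0448), ANLN, or anillin, a septin-binding protein of myelin, by 0.62 (SE 0.14, adjusted p = 0.0438), and PLA2G16, a phospholipase, by 0.43 (SE 0.10, adjusted p = 0.0355). The gene downregulated was ELOVL7, an elongase of long fatty acids, from 1675 ± 270.0 to 1092 ± 275 (SD, n = 8 each) and -0.63 (SE 0.12, adjusted p = 0.0121).

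These calls changed with the settings, counted over the 47 tested genes of these lists and of those of precursors and axonal partners, which hold the same 7 and 1 calls. With layer numbers within animals as the block, 2 were called higher, and with each array scaled to a common median 0 were called in either direction. Leaving out single arrays gave from 0 to 8 calls higher. The count was 0 without deprived layer 4 of the 2-month contralateral LGN, without nondeprived layer 6 of the 4-month ipsilateral LGN and without nondeprived layer 3 of the 4-month contralateral LGN. It was 1 to 3 without 1 of 8 further arrays. These were deprived layers 3 and 5 of the 4-month ipsilateral LGN, 5 of the 2-month ipsilateral LGN and 6 of the 4-month contralateral LGN, and nondeprived layers 4 and 6 of the 2-month ipsilateral LGN and 3 and 5 of the 2-month contralateral LGN. Of the uncalled genes of these lists, GPM6B stood at 0.40 (SE 0.11, adjusted p = 0.0792) and PPP1R14A at 0.55 (SE 0.16, adjusted p = 0.113). None of 7 oligodendrocyte precursor genes was called, although 7 of 7 had a value above 0 and 2 an unadjusted p under 0.05. The paranode and node partners on the axon gave 0 of 6 called, with 3 above 0.

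**Figure D4:**
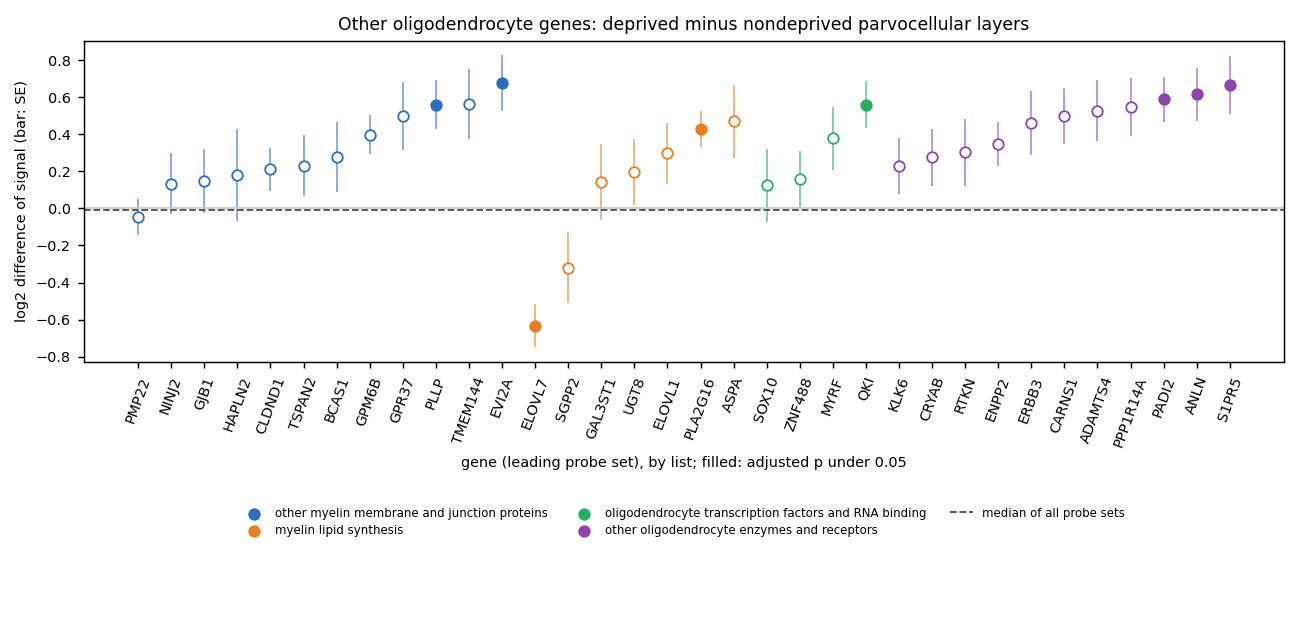
Log2 differences of signal between deprived and nondeprived parvocellular layers (points, with bars of 1 SE; 8 arrays in each group) for 34 other genes of mature oligodendrocytes in 4 coloured lists, with filled points at an adjusted p under 0.05 and the median of all probe sets dashed. Of the points 31 lie above 0, 7 of them filled, and ELOVL7 is the filled point below it.

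An astrocyte gene rose in the same layers. GFAP, the intermediate filament of astrocytes, rose from 3283 ± 596 to 7563 ± 3633 (SD, n = 8 each) in parvocellular layers, 1.07 (SE 0.21, adjusted p = 0.0184), and was the astrocyte marker called among 10, of which 8 lay above 0. The summed signal of the 10 astrocyte markers ran from 79962 to 112549 in deprived and from 74555 to 103224 in nondeprived parvocellular layers. None of 12 microglia markers was called, with 12 of 12 above 0 and a median of 0.28. Nor was any of 6 neuron markers, with 1 of 6 above 0 and a median of -0.07. The lists of other cells held no calls. Their medians were 0.34 for pericyte and meningeal (3 of 3 above 0) and 0.32 for blood markers (2 of 2). They were 0.27 for Schwann cell (2 of 2), 0.24 for GABAergic (3 of 4) and 0.01 for endothelial markers (3 of 5). Whether a changed mix of cells in the captures had a part in the differences of the members was not tested.

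In magnocellular layers 0 of the 34 mature oligodendrocyte genes were called between deprived and nondeprived layers. Of these 28 had a value above 0, with a median of 0.41 against 0.13 over all probe sets, and 4 an unadjusted p under 0.05. Several lists of markers of other cells also had medians above that of all probe sets. The median was 0.83 for pericyte and meningeal markers (3 of 3 above 0, 2 with an unadjusted p under 0.05). It was 0.39 for GABAergic, 0.33 for blood, 0.32 for Schwann cell, 0.30 for astrocyte and 0.22 for microglia markers. Neuron markers had a median of -0.09, with 5 of 6 below 0, and the endothelial median was 0.12. None of these markers was called. Their part was not tested.

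Some of the wider genes were also higher in parvocellular than in magnocellular layers. Of the 34, 5 were higher in parvocellular layers and none was lower, where 2.25% and 1.35% of all probe sets were called, and 28 of 34 lay above 0 with a median of 0.32 against -0.03 over all probe sets. TSPAN2, a tetraspanin of the oligodendrocyte lineage, gave 372 ± 126 (SD, n = 16) in parvocellular and 211 ± 87.4 (SD, n = 8) in magnocellular layers, a log2 difference of 0.83 (SE 0.15, adjusted p = 0.00102). PLLP differed by 0.61 (SE 0.15, adjusted p = 0.0219), ZNF488, a transcription factor that acts with OLIG2, by 0.59 (SE 0.14, adjusted p = 0.0155), CRYAB, the small heat shock protein alpha B-crystallin, by 0.58 (SE 0.14, adjusted p = 0.0210), and PLA2G16 by 0.44 (SE 0.10, adjusted p = 0.0106). Leaving out single arrays gave from 3 calls, without nondeprived layer 1 of the 4-month ipsilateral LGN, to 8, without deprived layer 2 of the same LGN. Fewer were called in each animal alone. The uneven GAPDH ratios given above for MAL and MBP apply to this comparison too. On probe sets other than the leading one of their gene, CLDND1, QKI and ENPP2 (on 2) were also called higher, with log2 differences from 0.61 to 0.88. PLLP and PLA2G16 were called here and with deprivation, comparisons that share the parvocellular arrays. None of the 7 precursor genes was called between the classes. The axonal partners had 5 of 6 values below 0, in a range from -1.18 to 0.42. None of them was called, and 4 had an unadjusted p under 0.05. Among them KCNA1, a juxtaparanodal potassium channel, stood at -0.93 (SE 0.34, adjusted p = 0.150).

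**Figure D5:**
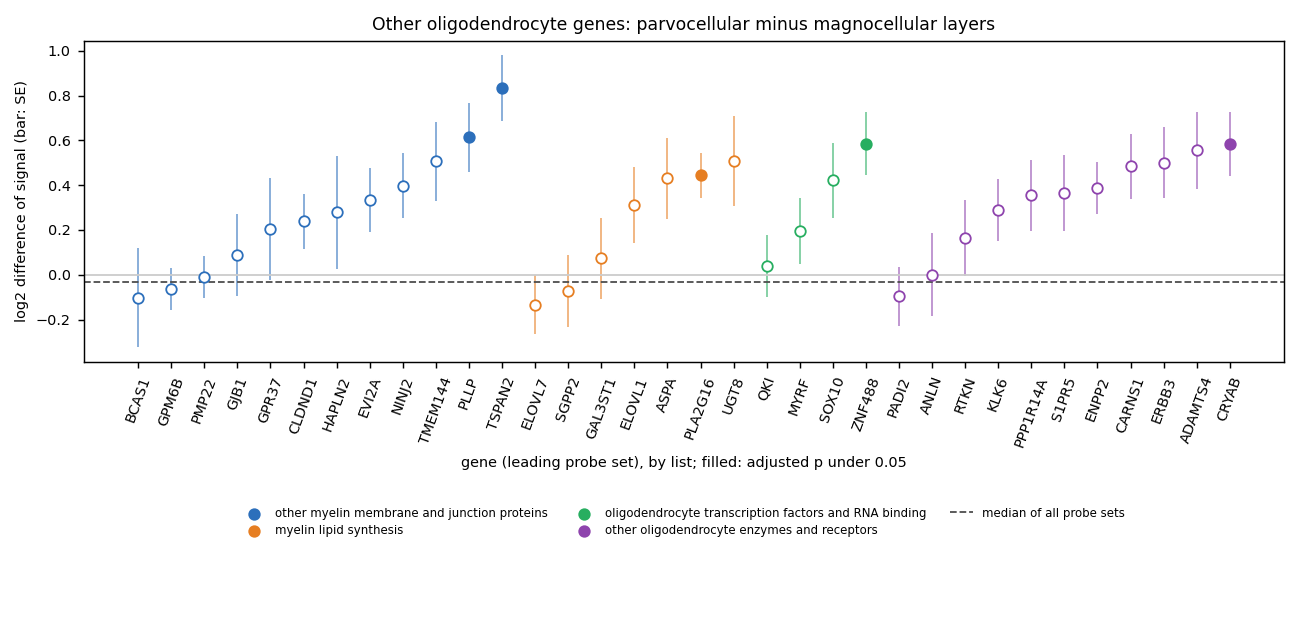
Log2 differences of signal between parvocellular and magnocellular layers (points, with bars of 1 SE; 16 and 8 arrays) for the 34 other genes of mature oligodendrocytes in 4 coloured lists, with filled points at an adjusted p under 0.05 and the median of all probe sets dashed. TSPAN2, PLLP, PLA2G16, ZNF488 and CRYAB are filled and all lie above 0.

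Markers of other cells took both directions between the classes. The 4 that were called were all lower in parvocellular layers. They were NEFH, the heavy neurofilament of large axons, by -0.66 (SE 0.13, adjusted p = 0.00229), GAD1, which makes GABA, by -0.56 (SE 0.11, adjusted p = 0.00213), GLUL, the glutamine synthetase of astrocytes, by -0.32 (SE 0.09, adjusted p = 0.0352), and the lysosomal protein CD68 of microglia by -0.46 (SE 0.12, adjusted p = 0.0294). The lists around them were mixed, with 3 of 6 neuron, 2 of 4 GABAergic, 6 of 12 microglia and 3 of 10 astrocyte markers above 0. Endothelial markers ran the same way as the oligodendrocyte genes, with 5 of 5 above 0, a median of 0.29, 3 unadjusted p-values under 0.05 and none called. The summed signal of the 6 neuron markers ran from 100037 to 141231 in parvocellular and from 109399 to 168975 in magnocellular layers, and the part of these cells in the MAL and MBP differences was not tested.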

How the data were processed

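The authors amplified and hybridized RNA of 24 laser-captured LGN layers and derived probe set values with GCOS. What they deposited is an intensity on a linear scale, in arbitrary units and scaled on each array to a trimmed mean of 500.04. Array depth has no counts, so the number of arrays limits the precision. Layer class and deprivation were taken from the labels, with the layer scheme of the methods.

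Symbols came from the platform annotation, and of several probe sets the one highest in mean log2 signal stood for a gene of a list. Of 52865 probe sets, 99 are controls, and 37623 that reached a signal of 100 on 1 array or more were tested, after signals under 1 were set to 1 and log2 was taken from the deposited intensity. Linear models with the LGN as a fixed block were fitted in R 4.3.3 with limma 3.58.1, moderated by eBayes with a trend. Within a comparison, Benjamini-Hochberg adjustment ran over every probe set tested, and calls were made at 0.05. The fit was tested on simulated data.

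The members, the gene lists, the tests and the rule for naming genes (each member probe set; genes of the wider lists past the threshold or, failing that, with the smallest p; called markers; the 10 most alike genes) were chosen with earlier results of these data known. GPM6B, PPP1R14A and KCNA1 were named as the uncalled genes with the smallest p or as an example of their list. The alternatives were other scalings, pseudocounts, floors, filters and blocks, no trend, the GAPDH ratio as a covariate, each animal alone and each array left out.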

Additional observations from a re-analysis of the deposited data

Results flagged for a closer look

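In 44 groups of member values, 1 for each probe set and group of 4 or 8 layers, a single array lay far from the others in 4, where chance flags about 1 group in 20. The MBP probe set MmuSTS.1479.1.S1_at read 14576 in deprived layer 3 of the 4-month ipsilateral LGN, above the next deprived parvocellular layer at 9962. The CNP probe set with the prefix Mmu read 7399 in deprived layer 4 of the 4-month contralateral LGN, where the next deprived parvocellular layer read 3584. The other CNP probe set, MmugDNA.9604.1.S1_at, read 26706 in nondeprived layer 3 of that same LGN, with the next nondeprived parvocellular layer at 20748. The low-signal CD9 probe set read 247 in deprived layer 1 of the 2-month contralateral LGN, with the next deprived magnocellular layer at 152. The causes were not tested.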

How the results depend on the processing

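Of 944 recomputed member values, 1 called value changed sign, 21 calls were lost and 2 gained, and 49 values called in neither fit changed sign. The reversal was MBP on MmugDNA.21844.1.S1_at between the layer classes, 0.26 (adjusted p = 0.0069) after quantile normalization. For deprived against nondeprived parvocellular layers, the 2 member calls became 1 (CD9 on MmuSTS.3583.1.S1_at) with a common median or with signals under 50 set to 50, 0 without a trend and 0 in each animal alone, and 1 to 3 with single arrays left out. The parvocellular against magnocellular count of 2 became 3 after quantile normalization, 1 without a trend (MAL), 0 with the GAPDH covariate, 0 with that covariate and without the array that stood apart (chosen after the data were seen), 0 at 2 months alone and 1 at 4 months alone (MAL), and 1 to 2 with single arrays left out. The other member counts were 0 with any single array left out.

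Of 47 tested genes in 6 wider lists, 7 were called higher with deprivation in parvocellular layers. This became 0 with a common median, without a trend and in each animal alone, 2 with signals under 50 set to 50, 3 with the animal as the block, 4 with the GAPDH covariate, 4 with the mean over the probe sets of a gene, and 0 to 8 with single arrays left out. The 1 called lower became 0 with a common median, without a trend and in each animal alone, and stayed 1 to 1 with single arrays left out. Of the layer class counts, 5 higher became 3 without a trend and with the animal as the block, 0 at 2 months alone and 1 at 4 months alone, and 3 to 8 with single arrays left out, while 0 lower became 1 with gene means and stayed 0 with any array left out.

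Pairing by layer number was not used in the main fits. Over same-numbered layers of 1 animal the deviations correlated by 0.00666 to 0.226 in parvocellular and 0.0712 to 0.398 in magnocellular layers. All of these values were above 0, so some pairing by layer number is not excluded. With layer number within each animal as the replicate block, the 2 CD9 probe sets stayed called (adjusted p = 0.0383 and 0.0414). The wider genes called higher fell to 2 with that block. In signal over background, the limit lay in OLIG2 on MmugDNA.17552.1.S1_at and the low-signal CD9 probe set, which did not reach 100 on every array.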
